A study of Gallus gallus with 6 samples.

Results

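DNA replication genes encode the machine that copies the genome once per cell cycle. The genes described here are 46 members chosen by name for their place in that machine, of which 41 had a probe set under their symbol among the 13009 genes of the array; MCM4, MCM7, POLD1, CDC6 and GINS2 were not analysed here. Each gene was read through its brightest probe set, the one with the highest mean over the 6 arrays. The cells were chicken neural crest cultures grown out of neural tube explants of stage 9+ embryos. After 4 h in culture they received media alone (control, 3 arrays) or homocysteine, a sulfur amino acid, at a final concentration of 100 uM (3 arrays), and both groups were kept for 6 h. The labels name no strain, genotype or transgene for either group, and the cultures hold whatever cells the explants shed. The arrays carry the numbers 1 to 3 in each group, and nothing says that they came from separate cultures. The spread that the p-values rest on may therefore be technical.

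Replication is prepared in G1, when the origin recognition complex, CDC6 and CDT1 load the ring of MCM2 to MCM7 onto DNA. In S phase CDC45 and the GINS proteins join that ring to form the active helicase, DNA polymerases copy each strand, and the sliding clamp PCNA, placed by the RFC clamp loader, holds the polymerases on the template. In animal cells many of these genes are transcribed at the G1 to S transition under E2F control, so their RNA is a common readout of cycling cells. Neural crest cells are known to proliferate as they leave the neural tube. In RNA from a whole culture, fewer cycling cells and less RNA per cycling cell cannot be told apart.

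The replication genes were expressed in both groups. Of the 41 measured members, 40 were above background on all 6 arrays, against 60.9% of all genes tested. Background was the 95th percentile, on each array, of 57 reporter probe sets that match no chicken transcript, and lay between 53.2 and 84.9. The remaining gene, PRIM1, was below it on 1 array. Probe sets differ in how well they bind, so intensities were compared between arrays for 1 gene and not between genes.

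**Figure D1:**
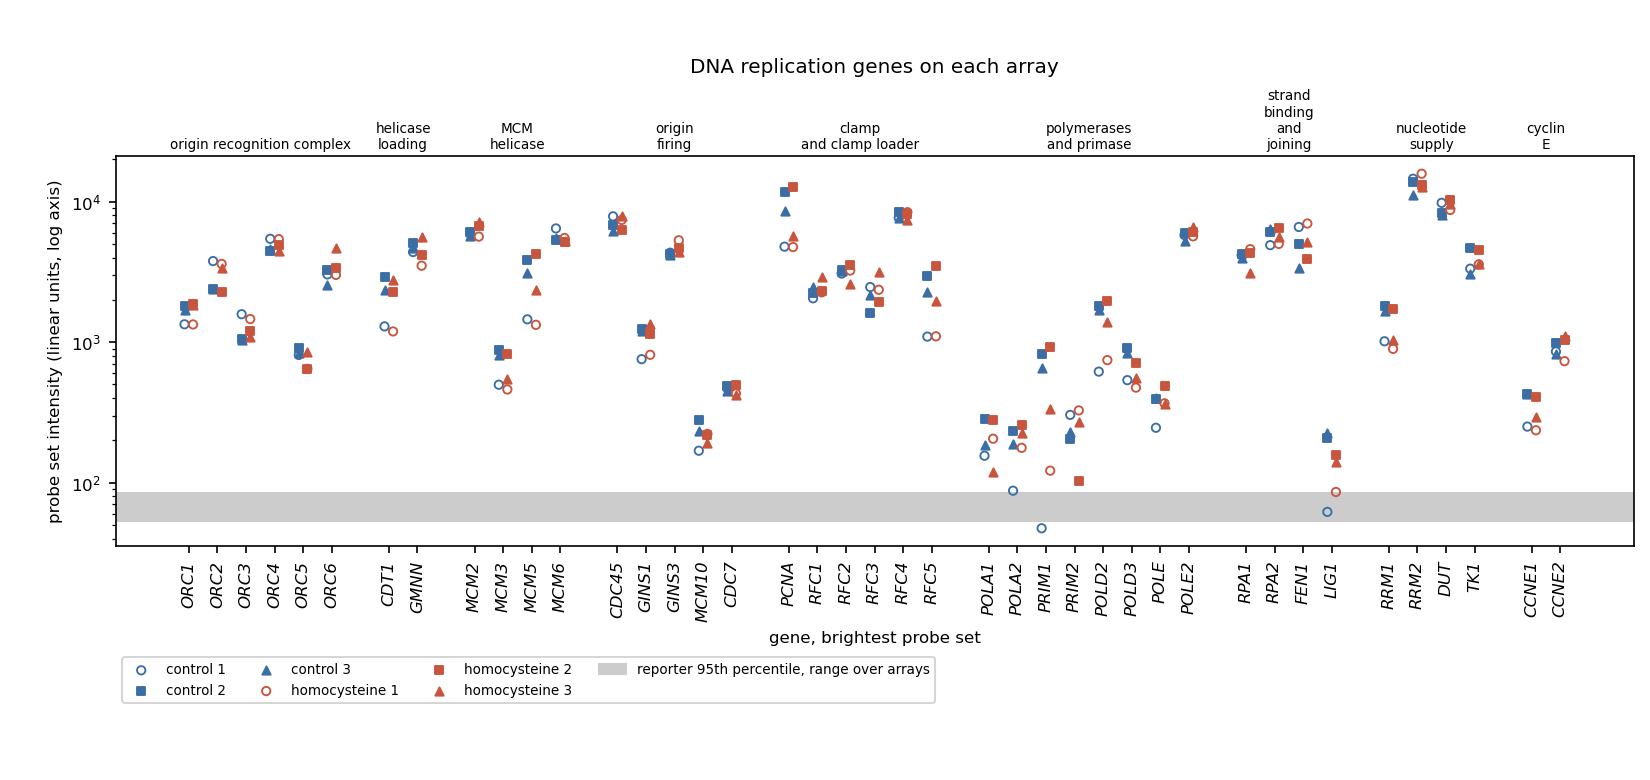
Intensity (linear units on a log axis) of the brightest probe set of each of the 41 measured replication genes on each array, by role; blue marks are control, red marks homocysteine, and open circles are the replicate 1 arrays. The grey band is the range of the reporter 95th percentile over the arrays, 53.2 to 84.9. Most marks lie far above the band, and PRIM1, LIG1, POLA2 and PRIM2 come nearest to it.

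Several facts of the arrays touch the results. Median intensity lay between 57.7 and 70.9. Both replicate 1 arrays differed from the rest. The 5' over 3' signal of ACTB, a measure of how complete the labelled RNA is, was 0.0572 on control 1 and 0.059 on homocysteine 1. It was 0.41 and 0.287 on control 2 and 3, and 0.421 and 0.238 on homocysteine 2 and 3. Of 10 neural crest markers 9 were above background on all 6 arrays (PAX3 was not), as were 5 of 5 markers of the neural tube, from which the explants were taken. Their summed intensity ranged from 7793 to 18009 in control and 8252 to 16644 with homocysteine for crest, and from 13522 to 17946 and 14443 to 18959 for neural tube. Of 4 neuron markers 3 were above background on all arrays, as were 2 of 2 measured surface ectoderm markers and 3 of 4 measured blood and endothelium markers. Of 4 mesoderm markers 2 were above background on all arrays (TBX6 and TCF15 were above it on none), and their sum was 559.2 to 846.6 and 552.1 to 1671. The part of other cell types in the values below was not tested.

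The comparison of homocysteine with control asks whether 6 h of homocysteine changed the RNA of these genes. No replication gene was called. In limma across 38382 probe sets, 0 of the 41 passed a Benjamini-Hochberg adjusted p of 0.05, against 0% of all genes tested, and the adjusted p was 0.9999 for every one. At an unadjusted p under 0.05 there were 0 of 41 in either direction, where 1.4% of all genes tested were higher and 0.861% lower with homocysteine, or 0.0505% and 0.0252% of the 7925 genes above background on all 6 arrays. Genes above background on all 6 arrays so rarely reached that p in this fit that 0 of 41 does not show the members unchanged. The smallest unadjusted p among the members was 0.307, for POLD3. An unmoderated statistic per probe set, among the alternatives that were run, also called 0.

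The log2 changes of the members lay between -0.38 and 0.47. They were positive for 23 genes, or 56.1%, where 51.6% of all genes tested and 50.9% of the genes above background on all arrays were positive, and negative for 18. Their median was 0.029, beside 0.0084 over all genes tested and 0.0036 over the genes above background on all 6 arrays. The median took either sign when arrays were left out, from -0.056 without control 1 to 0.11 without control 2.

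The intervals were computed gene by gene, but not from the values of that gene alone. In limma the variance of each probe set is drawn toward a value shared by all 38382. For a steady gene this widens the interval: GINS3 had an unadjusted p of 0.52 in limma and 0.106 with the unmoderated statistic. The intervals and the counts below therefore depend on that shared variance. They are not adjusted for the number of probe sets tested, so a change beyond them need not have been called. At the median, the 95% interval of a member's log2 change reached 0.75 to either side. For 23 of the 41 genes the whole interval lay within a log2 change of 1 to either side of 0, that is, within a doubling or a halving; this was so for 40.4% of all genes tested and 63.3% of the genes above background on all arrays. These 23 were ORC1, ORC2, ORC3, ORC4, ORC5, GMNN, MCM2, MCM6, CDC45, GINS1, GINS3, MCM10, CDC7, RFC1, RFC2, RFC4, POLE2, RPA1, RPA2, RRM2, DUT, TK1 and CCNE2. For the other 18 the interval of this fit, which sets no array beside its same-numbered partner, reached further. With the replicate number as a block, the intervals of 34 genes lay within those limits, beside 53.3% of all genes tested and 82.2% of the genes above background on all arrays. They were the same 23 and CDT1, MCM3, MCM5, PCNA, RFC3, RFC5, POLA1, POLD2, POLE, FEN1 and CCNE1. In both fits ORC6, POLA2, PRIM1, PRIM2, POLD3, LIG1 and RRM1 had intervals that reached beyond a doubling or a halving. Without the block PRIM1 had the widest interval, from -3.02 to 3.38.

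**Figure D2:**
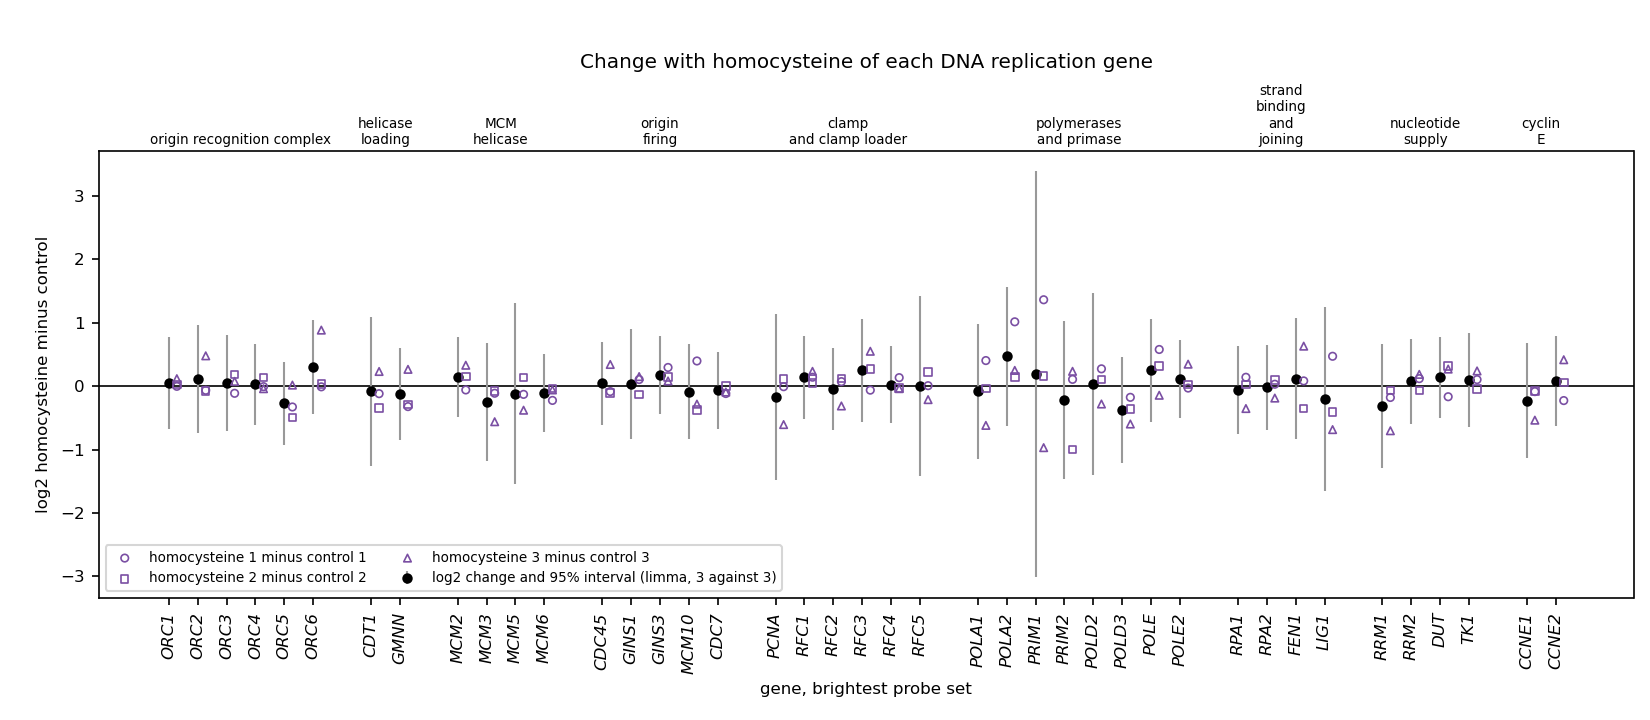
Log2 change with homocysteine of each measured replication gene, by role. Black points and grey bars are the limma estimate and its 95% interval for 3 arrays against 3, and purple open marks are the differences between same-numbered arrays. Every bar crosses 0, and the widest belongs to PRIM1, from -3.02 to 3.38.

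The MCM genes encode the ring helicase that unwinds the template, and 4 of its 6 subunits were measured. All 4 were above background on every array, between 5.97 and 134 times the reporter level of the array. MCM2 was read at 5880.4, 6034 and 5689.5 on control 1 to 3, and at 5639, 6696 and 7148 on homocysteine 1 to 3. Control MCM2 was tight, at 5868 ± 172.5 (SD, n = 3), and homocysteine 1 lay below all of it while homocysteine 2 and 3 lay above. The log2 change was 0.14, with an interval from -0.49 to 0.77.

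MCM6 was read at 6445, 5314 and 5467 on the control arrays and at 5512, 5172 and 5244 on the homocysteine arrays. It was lower with homocysteine in each same-numbered pair, yet the groups overlapped, and the log2 change was -0.11 with an interval from -0.73 to 0.51. MCM3 was read at 497.9, 873.9 and 805.9 in control and at 460.5, 827.4 and 546 with homocysteine. It too was lower in each pair, with a log2 change of -0.25 and an interval from -1.18 to 0.68. MCM5 was read at 1454, 3865 and 3080 in control and at 1328, 4254 and 2367 with homocysteine, a log2 change of -0.12 (interval -1.55 to 1.30). In MCM3 and MCM5 the replicate 1 array was the lowest of each group, and the sign for MCM5 turned with which array was left out.

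The origin recognition complex marks where replication can begin, and its 6 subunits were all measured and above background throughout, between 7.58 and 101 times the reporter level. Log2 changes were positive for 5 of the 6, with a median of 0.048, where 51.6% of all genes tested were positive. The same-numbered pairs differed, with 0, 4 and 5 of the 6 genes positive for numbers 1 to 3. ORC1, its largest subunit, had a control intensity of 1621 ± 250.1 and a homocysteine intensity of 1679.9 ± 297.2 (SD, n = 3 each). ORC6 had the largest difference of the 6, at 2956 ± 374.4 and 3689 ± 893.2 (SD, n = 3 each). On homocysteine 3 it was read at 4701, whereas homocysteine 1 and 2 gave 3010.4 and 3356 beside 3034.5 and 3285.5 on the same-numbered control arrays. ORC5 went the other way, at 853.2 ± 49.45 and 713 ± 118.9 (SD, n = 3 each), with homocysteine 1 and 2 below all control arrays and homocysteine 3 among them.

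A pair of proteins govern the loading of the helicase in opposite ways: CDT1 brings MCM rings to origins, and geminin, encoded by GMNN, binds CDT1 and stops loading outside G1. CDT1 had means of 2182 ± 818.3 without and 2074 ± 798.4 with homocysteine (SD, n = 3 each). GMNN gave 4718 ± 373.1 and 4423 ± 1069 (SD, n = 3 each). Both lay at least 15.5 times above the reporter level on every array, and neither difference exceeded the spread between arrays.

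Origin firing turns the loaded ring into a working helicase. GINS3, a subunit of the GINS complex that joins MCM and CDC45, was the 1 member whose groups did not overlap. It was read at 4330.4, 4219 and 4157 on the control arrays and at 5309, 4649 and 4397 on the homocysteine arrays, so every homocysteine array was above every control array. The log2 change was 0.17, with an interval from -0.44 to 0.79 and an adjusted p of 0.9999 (limma). Among all genes tested, 3.17% had groups apart with homocysteine higher and 2.36% with homocysteine lower, and among those above background on all arrays 1.75% and 1.64%, so 1 of 41 (2.44%) lies near that background. A second, dim GINS3 probe set, above background on 4 arrays, gave means of 71.7 and 54.83, lower with homocysteine.

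In the other firing genes the groups overlapped. CDC45, which completes the helicase, gave 6955 ± 833.7 and 7186 ± 805 (SD, n = 3 each), and GINS1, a further GINS subunit, 1070.2 ± 272.3 and 1096 ± 265.3 (SD, n = 3 each). CDC7, the kinase that phosphorylates MCM proteins to start an origin, was among the steadiest members, at 469.8 ± 20.72 and 448.6 ± 38.26 (SD, n = 3 each). MCM10, a factor needed to activate the helicase, was dimmer, at 227.4 ± 56.3 and 210 ± 16.92 (SD, n = 3 each).

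PCNA, the sliding clamp, varied more between replicate numbers than between groups. It was read at 4781, 11751 and 8597 on control 1 to 3 and at 4750.5, 12670.4 and 5647 on homocysteine 1 to 3. The number 1 arrays were low and almost equal, the number 2 arrays were high, and the number 3 arrays lay between, lower with homocysteine. The log2 change of -0.17 had an interval from -1.47 to 1.14.

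The RFC genes encode the 5 subunits of the loader that opens PCNA, and all 5 were measured. RFC4 was steady, at 7903 ± 432.4 for control and 8017 ± 516.3 for homocysteine, and so was RFC2, at 3189.8 ± 98.06 and 3122 ± 473.2 (SD, n = 3 each). RFC1, the large subunit, was higher with homocysteine in each same-numbered pair, by 0.14, 0.05 and 0.23 in log2, with means of 2255.5 ± 210.3 and 2493 ± 357.2 (SD, n = 3 each). RFC3 had the largest log2 change of the 5, 0.25 with an interval from -0.56 to 1.06, and was read at 2466.7, 1603.6 and 2165.3 in control and at 2360.1, 1929 and 3168.9 with homocysteine. Its groups overlapped, with homocysteine 3 the highest array and control 2 the lowest. RFC5 had the pattern of PCNA across arrays, at 1095, 2972 and 2269 in control and 1100.5, 3465 and 1957 with homocysteine. RFC5 was the 1 loader subunit with both replicate 1 arrays below the other 4.

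Among polymerase and primase genes, 8 of 9 were measured and 7 were above background on all arrays. POLE2, a subunit of the leading strand polymerase, gave 5658 ± 402.3 and 6120.4 ± 480.4 (SD, n = 3 each), and POLE, its catalytic subunit, 348.3 ± 88.69 and 407.8 ± 72.23 (SD, n = 3 each). POLD3, a subunit of the polymerase that copies the lagging strand, was read at 536.7, 909.5 and 841.7 in control and at 474.7, 707.7 and 556.2 with homocysteine. It was lower in each pair and had the lowest log2 change of the members, -0.38, with an interval from -1.21 to 0.45; over leaving out each array it ran from -0.61 (without control 1) to -0.23 (without control 2). POLA2, the regulatory subunit of the polymerase that makes the first DNA, had the highest, 0.47, with an interval from -0.63 to 1.57. It was read at 87.7, 233.5 and 189.9 in control and at 177.1, 258.6 and 225.5 with homocysteine, and control 1 was the lowest array by far. Its log2 change was 0.048 without control 1 and 0.75 without control 2. POLD3 and POLA2 are given in full because of their values.

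PRIM1, the catalytic subunit of the primase that starts each new strand, had the widest spread over arrays of the 41 members. Its values were 47.4, 819.4 and 651 on the control arrays and 121.8, 917.2 and 332.2 on the homocysteine arrays. On control 1 it was below that array's background of 53.7. Its partner PRIM2 had the opposite order, highest on the number 1 arrays, at 303.7, 204.7 and 228.6 in control and 326.9, 102.6 and 268.7 with homocysteine.

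In the genes for strand binding and joining the groups overlapped. The interval of the log2 change ran from -0.83 to 1.07 for FEN1 and from -1.66 to 1.24 for LIG1. For RPA1 and RPA2 it lay within 1 to either side of 0. RPA1 and RPA2, subunits of the protein that coats single-stranded DNA, gave 4127 ± 122.1 and 4006 ± 778, and 5799.8 ± 799.2 and 5710.3 ± 748.3 (SD, n = 3 each). FEN1, the nuclease that trims flaps of Okazaki fragments, gave 4995 ± 1623 and 5369 ± 1535 (SD, n = 3 each). LIG1, the ligase that seals them, was dim, at 165.1 ± 89.62 and 127.6 ± 37.25 (SD, n = 3 each), and came down to 1.11 times the background of homocysteine 1.

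Nucleotide supply genes were well above background, at least 11.6 times on every array. RRM2, the regulated subunit of ribonucleotide reductase, gave 13169.7 ± 1813 and 13868 ± 1687, and DUT, which removes dUTP, 8694 ± 971.2 and 9563 ± 814.7 (SD, n = 3 each). TK1, a thymidine kinase of S phase, gave 3699 ± 875.4 and 3919 ± 555.7 (SD, n = 3 each). RRM1, the large subunit of ribonucleotide reductase, was read at 1014, 1804 and 1679 in control and at 895.7, 1720.1 and 1031 with homocysteine, lower in each pair, with a log2 change of -0.32 (interval -1.30 to 0.66). The cyclins E, which activate the kinase that drives entry into S phase, gave 368.7 ± 102.1 and 312.1 ± 85.74 for CCNE1 and 891.1 ± 87.99 and 954.5 ± 195.3 for CCNE2 (SD, n = 3 each).

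Same-numbered arrays were set side by side because the labels share the numbers, although they do not say that a number marks a shared culture. Homocysteine was higher in all 3 pairs for GINS3, RFC1 and POLA2 (7.32% of the members, against 12.9% of all genes tested and 12.2% of those above background on all arrays). It was lower in all 3 for MCM3, MCM6, POLD3, RRM1 and CCNE1 (12.2%, against 11.8% and 12.5%). Both shares are near or below the background. The median log2 difference over the 41 members was -0.0087 for number 1, 0.024 for number 2 and 0.016 for number 3, with 19, 22 and 21 genes positive. Of the genes above background on all arrays 51.4%, 52.9% and 47% were positive.

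**Figure D3:**
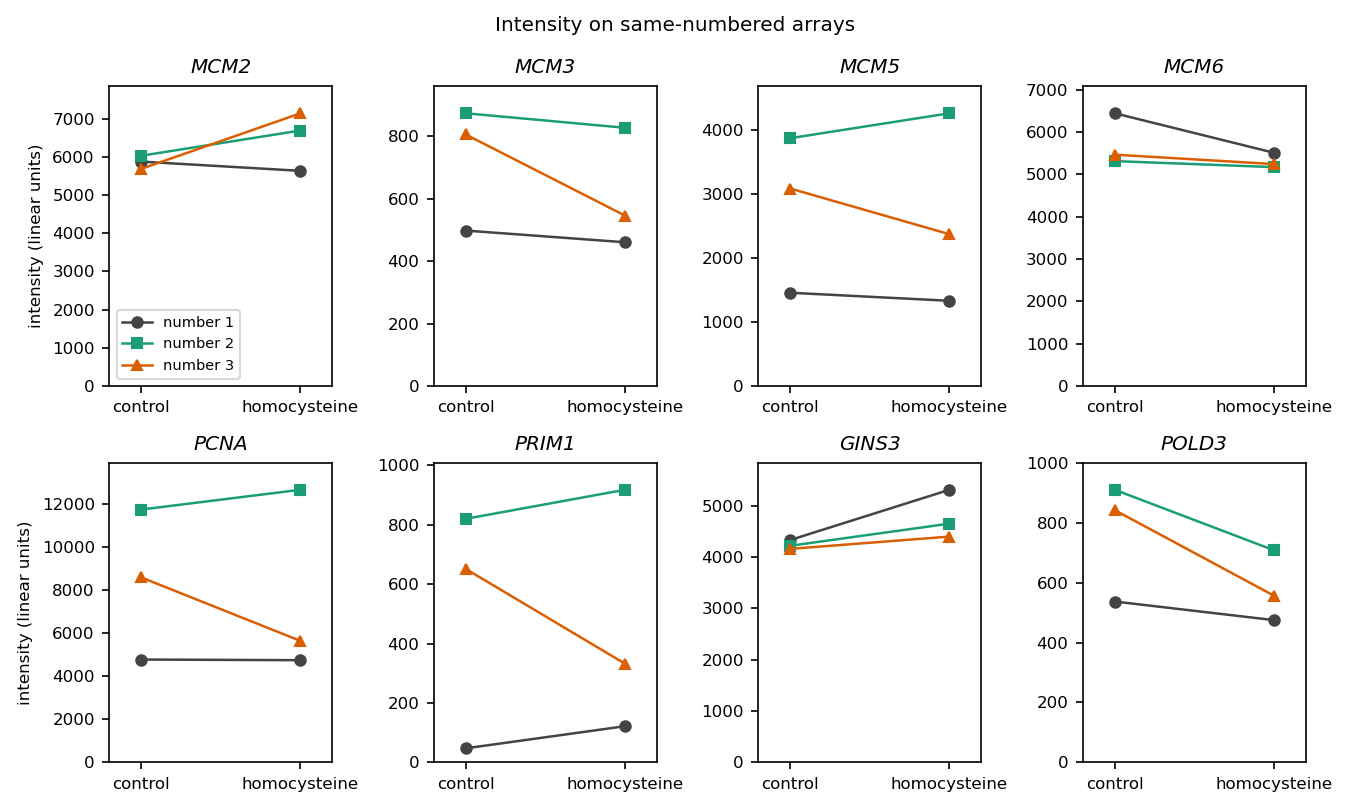
Intensity (linear units, axes from 0) of 8 replication genes on control and homocysteine arrays, with lines joining arrays of the same number. MCM2, MCM6 and GINS3 read much alike across numbers, whereas MCM3, MCM5, PCNA, PRIM1 and POLD3 are lowest on number 1 in both groups and drop on number 3 with homocysteine.

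The members fell into kinds by how the replicate 1 arrays read them, a description of values already seen and not a test. In 15 genes both replicate 1 arrays lay below the other 4, which was so in 20.4% of all genes tested and 25.2% of those above background on all arrays (36.6% of the members). They were ORC1, CDT1, MCM3, MCM5, GINS1, PCNA, RFC5, POLA2, PRIM1, POLD2, POLD3, RPA2, LIG1, RRM1 and CCNE1. The geometric mean of the other 4 arrays over that of replicate 1 ran from 1.24-fold for RPA2 to 8.36-fold for PRIM1, and was 1.93-fold for PCNA, 2.38-fold for MCM5 and 2.51-fold for POLD2, a small subunit of the lagging strand polymerase. In 7 genes both replicate 1 arrays lay above the other 4: ORC2, ORC3, ORC4, MCM6, PRIM2, FEN1 and RRM2 (17.1%, against 16.9% of all genes tested and 23.9% of those above background on all arrays). Both groups showed this: over the 40 members above background on all arrays, control 1 minus the mean of control 2 and 3 correlated with the same difference in homocysteine with r = 0.82 (rho = 0.82), beside r = 0.80 over 7925 genes. These are correlations across genes, which share arrays and are not independent. The low 5' to 3' ratios of the replicate 1 arrays stand beside this split, and their part in it was not tested.

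Among the members, the median number 3 difference was below 0 in the genes low on replicate 1 and above 0 in the other 2 kinds. Among the 15 genes low on replicate 1, homocysteine 3 was below control 3 in 11, with a median log2 difference of -0.38, beside -0.0037 for number 1 and 0.028 for number 2. In the same 11 genes homocysteine 3 was the lowest of the 4 arrays numbered 2 and 3. Over all measured members homocysteine 3 was the lowest of those 4 arrays in 19 genes and the highest in 12. Of the 7925 genes above background on all arrays, 47% were higher on homocysteine 3 than on control 3. The counts of lowest and highest arrays are not given over all genes. The counts and medians by kind are not given for all genes of that kind, such as all genes low on replicate 1. Whether 11 of 15, the 19 and 12 genes or the medians are particular to these members is therefore not shown. Among the 19 genes in neither kind the number 3 median was 0.23, and among the 7 high on replicate 1 it was 0.185. Across the 40 members above background on all arrays, control 1 minus control 2 correlated with homocysteine 3 minus control 3 with r = 0.60 (rho = 0.60), although these differences have no array in common. Over the 7925 genes r was 0.27 (rho = 0.29), and over 45 other genes of replication and its cell cycle control 0.40 (rho = 0.46). Homocysteine 3 had the lowest ACTB and GAPDH ratios of the 4 arrays numbered 2 and 3, at 0.238 and 0.456 beside 0.287 and 0.663 on control 3. The part of RNA quality in the number 3 differences was not tested. Without the replicate 1 arrays, 0 members passed and the median log2 change was -0.015.

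**Figure D4:**
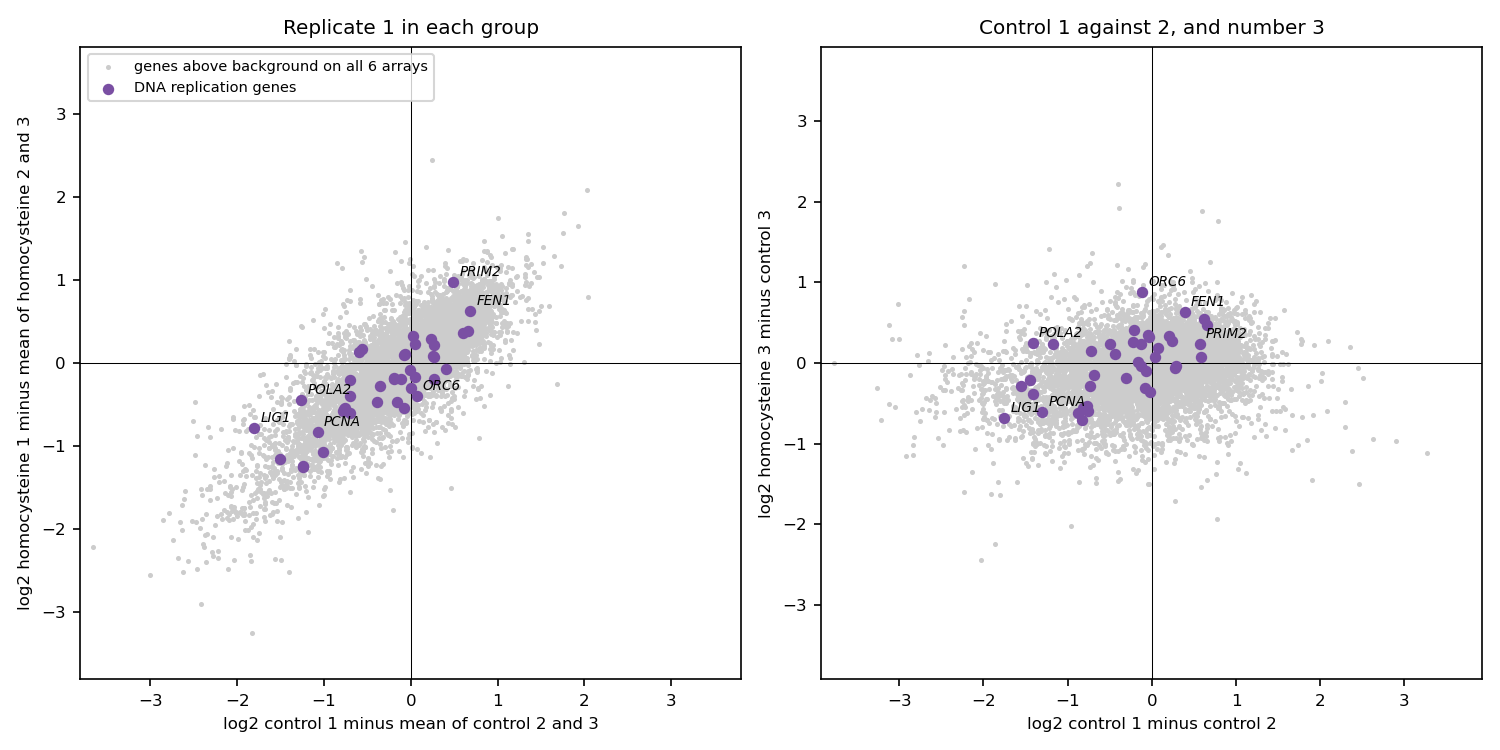
Log2 differences between arrays for 40 replication genes (purple) and 7925 genes above background on all arrays (grey). Left, replicate 1 minus the mean of replicates 2 and 3 in control (x) and homocysteine (y), with r = 0.82 over the replication genes. Right, control 1 minus control 2 (x) and homocysteine 3 minus control 3 (y), with r = 0.60 over the replication genes and 0.27 over all.

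Probe sets of the same gene did not always show the same pattern. Of the 41 genes, 21 had several probe sets, and 13 had at least 2 above background on all arrays. In 10 of these 13 the log2 changes had opposite signs: CCNE1, CCNE2, DUT, MCM6, ORC6, POLD3, RFC1, RFC2, RPA1 and RRM1. The same share over all genes with several such sets is not given. Whether 10 of 13 is particular to the members is therefore not shown. For RRM1 the brightest set was lower with homocysteine in each pair, whereas the second set, at 170.6, 684.8 and 529.3 in control and 246.7, 1028 and 839.4 with homocysteine, was higher in each pair, with a log2 change of 0.59. POLD3 had 5 such sets, with log2 changes of -0.38, -0.14, 0.36, -0.06 and -0.09 from brightest to dimmest. The sign for RRM1, POLD3 and CCNE1 differed with the probe set read.

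The split by replicate 1 also ran within genes. In 5 of the 13, namely ORC6, POLD3, DUT, CCNE1 and CCNE2, some sets had both replicate 1 arrays below the other 4 and some did not. This share too is not given over all genes. The brightest DUT set was level, with the other 4 arrays at 0.974 times replicate 1. The second DUT set was read at 752.6, 3014 and 2653 in control and 843.2, 3227 and 1903 with homocysteine, 3.32-fold higher on the other 4. For ORC6 the figures were 1.122-fold for the brightest set and 2.699-fold for the second. Within these genes the low reading on replicate 1 was seen with some probe sets and not with others.

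**Figure D5:**
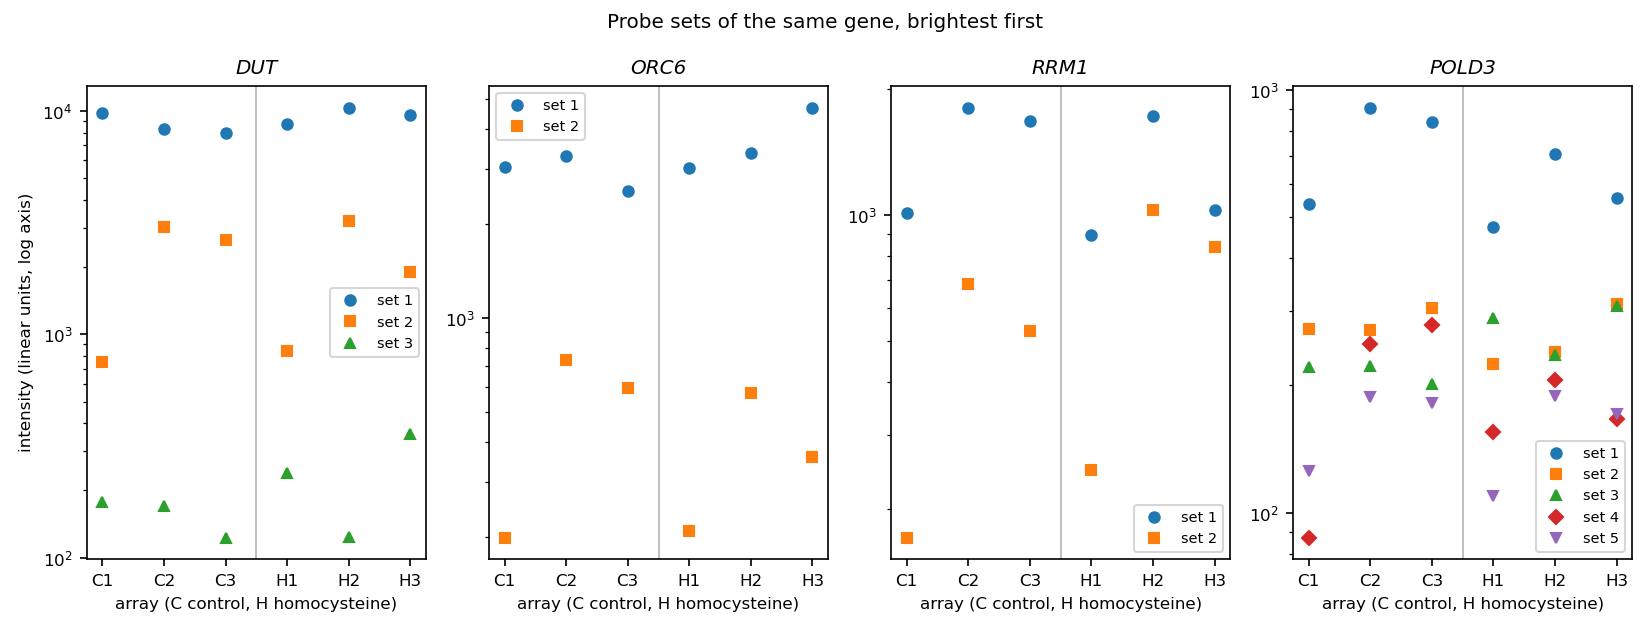
Intensity (linear units on a log axis) on the 6 arrays of every probe set above background on all of them, for DUT, ORC6, RRM1 and POLD3; sets are numbered from the brightest. In DUT and ORC6 set 2 is low on C1 and H1 while the brightest set is not. The brightest ORC6 set is highest on H3. In RRM1 the order of the groups differs between the sets.

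A wider list of genes of replication and its cell cycle control gave no call either. It takes in regulators such as E2F1, RB1 and CDKN1A. Of its 60 genes, 48 were measured, and all 48 were above background on at least 3 arrays. Of these, 0 passed an adjusted p of 0.05 and 0 an unadjusted p of 0.05 in either direction (limma), and the log2 change was above 0 in 23 and below it in 25, around a median of -0.015. RRM2B, a ribonucleotide reductase subunit that p53 induces in mammals, had the smallest unadjusted p, 0.0503. It was read at 1141, 866.9 and 1220.7 in control and at 679.1, 683.5 and 650.7 with homocysteine, all homocysteine arrays below all control arrays, with an adjusted p of 0.9999 in limma. DDX11, a helicase of the replication fork, was read at 111.5, 145.7 and 150.3 in control and at 222.4, 192.7 and 570 with homocysteine, also without overlap (adjusted p of 0.9999 in limma). Homocysteine 3 was far above the rest, and the mean over all DDX11 probe sets had the opposite sign. The groups were thus apart in 1 of the 48 genes in each direction. Of all genes tested, 3.17% were apart with homocysteine higher and 2.36% lower. The log2 change was -0.67 for RRM2B (interval -1.33 to 0.0011) and 1.11 for DDX11 (interval -0.076 to 2.29). The unadjusted p of both genes depended on the fit. With values raised to background, limma gave 0.0154 for RRM2B and 0.0025 for DDX11 (adjusted p of 0.784). The unmoderated statistic gave 0.012 for RRM2B and 0.0954 for DDX11. With only probe sets above background on at least 3 arrays, limma gave 0.0183 for RRM2B and 0.0397 for DDX11 (adjusted p of 0.9999). With replicates 2 and 3 only, limma gave 0.152 for RRM2B and 0.151 for DDX11 (adjusted p of 0.9999). Of the 48 genes of the wider list, 9 had both replicate 1 arrays below the other 4, and 10 had both above. Of all genes tested 20.4% had both below and 16.9% both above, and of those above background on all arrays 25.2% and 23.9%.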

How the data were processed

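Total RNA of 6 culture samples was read on 1-colour Affymetrix chicken arrays. The deposited table holds linear intensity values for 38535 probe sets. RMA, with no version, is the tool named per the submitters' processing notes, but the values are linear with unequal quantiles, which is not the form of RMA output. No source used here gives the probe summary or detection calls. Although the dye entry lists both Cy3 and Cy5, values were treated as 1 channel. Log2 of each value was taken with no pseudocount or further normalization. After leaving out 96 Affymetrix control and 57 reporter sets, limma 3.58.1 in R 4.3.3 compared 3 homocysteine with 3 control arrays (lmFit, eBayes, two-sided, Benjamini-Hochberg over 38382 probe sets, threshold 0.05). The fit was also run on simulated data in which the noise was independent between arrays. Same-numbered arrays here shared deviations, so that run does not show how many true changes would be called. Gene symbols came from the platform annotation, exact match only; 40 of 41 members had the same symbol by gene number in RefSeq GRCg7b (POLD2 had none). Members, lists and tests were chosen with earlier results of these data known. Arrays' values were to be printed for MCM2 to MCM7, PCNA, members at an unadjusted p under 0.05, bright members with groups apart and members not above background; other genes given in full were picked after their values were seen. The alternatives covered the replicate block, filters, scalings, variance models, probe set choice, backgrounds and leaving out arrays. The number of arrays limits the precision. Exact permutation of 3 against 3 cannot reach a two-sided p below 0.1.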

Additional observations from a re-analysis of the deposited data

How the results depend on the processing

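As reported and under every alternative run, 0 replication genes and 0 probe sets of the whole array passed, while 375 to 2107 probe sets had an unadjusted p under 0.05 (limma; smallest adjusted p of a member 0.784, with values raised to background). The 375 were among 19257 sets above background on at least 3 arrays, and the 2107 among 38382 with replicates 2 and 3 only. With no change in any set, a share of about 0.05 would be expected only if arrays were independent and the variance model suited every set. Same-numbered arrays shared deviations. In the fit as reported 0.0505% of the 7925 genes above background on all arrays were higher and 0.0252% lower at that p (limma). The share of 0.05 is thus no yardstick for these counts. Between 40 and 41 members were above background under every alternative run. Whether the numbers pair the arrays is not settled by the labels. Deviations from the group means of same-numbered arrays correlated by 0.172, 0.108 and 0.0486 for numbers 1 to 3 over all probe sets, by 0.786, 0.703 and 0.332 over the 14437 probe sets above background on all arrays (0.313 at most between different numbers), and by 0.868, 0.861 and 0.0773 over the members (0.702 at most between different numbers). The fit without the block was kept as planned; with the replicate block 0 probe sets and 0 members passed (2023 probe sets at an unadjusted p under 0.05), and 34 rather than 23 members had an interval within a log2 change of 1. The median log2 change of the members, 0.029, was -0.026 with arrays centred on their medians, -0.073 with array weights, -0.015 with replicates 2 and 3 only, and -0.056 to 0.11 over leaving out each array; the cause was not tested. Of 238 values of 14 named genes under the alternatives, 14 turned sign, none of them called. The replicate block, replicate 1 as a batch, the probe set filter, trended variance and the unmoderated statistic leave each estimate unchanged. No sign could turn under those, so 14 of 238 does not measure how stable the signs are. PRIM1 gave -0.35 with array weights and -0.40 with replicates 2 and 3 only. Over leaving out each array PRIM1 ranged from -1.13 (without control replicate 1) to 0.93, POLA2 from 0.048 (without control replicate 1) to 0.75, MCM5 from -0.54 to 0.29 (without homocysteine replicate 1) and PCNA from -0.60 to 0.12 (without control replicate 2). With the mean over all probe sets of a gene, MCM2 gave -0.48, RFC1 -0.052, RRM1 0.14, CCNE1 0.44 and DDX11 -0.019. The MCM2 mean takes in a set above background on 0 arrays. The CCNE1 mean takes in sets above it on only 2 and 0 arrays. Dim signal limits PRIM1, LIG1, POLA2 and PRIM2, which came near background on at least 1 array.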
